A study of Mus musculus with 24 samples.

Results

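The Myc-by-Mlx interaction asked, gene by gene, whether the loss of Mlx changed an mRNA differently in primary mouse embryonic fibroblasts (MEFs) that retained Myc and in MEFs that had lost it. It was computed as the difference of differences (DKO − MycKO) − (MlxKO − WT) on log2(CPM + 1), where CPM is the deposited, library-scaled read count per gene. A positive interaction means that Mlx loss moved the gene further up, or less far down, without Myc than with Myc. The members are the 13101 genes, of 41710 in the table, that reached 1 CPM in 3 or more primary libraries, of which there are 12 among the 24 libraries of the series. The threshold used no difference between groups.

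The 4 groups were primary WT, MlxKO, MycKO and DKO MEFs, with 3 libraries each. MEFs came from embryos of about E14 to E16 that carried floxed Myc alleles, floxed Mlx alleles or both, together with a CreER transgene under the ubiquitous ROSA26 promoter. Deletion was induced with 500 nM 4-hydroxytamoxifen (4OHT), and WT denotes MEFs whose loci were left intact, for which the methods describe mostly a single line as control. The methods place the RNA at about day 10, and the labels do not say whether the WT libraries received 4OHT or vehicle. Cells of at least 6 embryos were pooled for a culture, and the 3 libraries of a group carry no label of separate pools. Genotype and embryo pool therefore cannot be told apart, and p-values below measure the spread between libraries. Libraries held 15986856 to 20966163 reads on genes, which puts 3 reads, the floor used here for detection, at 0.149 to 0.196 CPM.

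Myc dimerizes with Max and activates genes at E-boxes, a short DNA element. Mlx is the Max-like partner of MondoA (encoded by Mlxip) and ChREBP (Mlxipl), which sense glucose-derived metabolites and bind paired E-box-like elements, and Mlx also pairs with some Mxd proteins and Mnt, which repress. In fibroblasts, Myc is best known for ribosome production, nucleotide synthesis and cell-cycle entry, and the Mlx branch for the glucose-responsive genes Txnip and Arrdc4.

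Myc and Mlx were checked first. Myc (chr15:61857227-61862223, GRCm39) read 100.1, 89.8 and 91.8 CPM in WT, 85.6, 89.6 and 87.3 in MlxKO, 25.8, 26.8 and 26.8 in MycKO and 21.6, 22.9 and 19.9 in DKO libraries. Mlx (chr11:100978080-100983043) read 26, 20.5 and 24.5 CPM in WT, 13, 13.5 and 14 in MlxKO, 21.1, 17.3 and 20.5 in MycKO and 11.8, 12 and 9.73 in DKO libraries. Each targeted mRNA was lower in every library of the groups that carry its deletion than in every library of the others, with remaining values that count reads over the whole gene, undeleted exons included. The drop of Mlx was alike in both backgrounds, -0.76 with Myc and -0.76 without (interaction 0.00 ± 0.16 SE, limma adjusted p = 0.995).

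The libraries differed in other ways too. All 10 fibroblast markers were detected in every group, with summed levels of 42753 to 58686 CPM. MycKO library 10 and WT library 3 stood apart from the other libraries of their groups, with 24.8 to 25.3 and 11.2 to 11.6 chi-square units per gene against the others, and MlxKO library 7 followed with 9.48 to 10.9. The 4 Y-linked genes summed to 97.5 to 161 CPM in WT, MlxKO and MycKO libraries and to 18.8 to 19.8 CPM in DKO libraries, and Xist, transcribed from the inactive X, read 143, 176 and 186 CPM in WT, 171, 186 and 113 in MlxKO, 103, 146 and 102 in MycKO and 545, 529 and 544 in DKO libraries. The DKO cultures thus had less Y-linked and more Xist RNA than the others, and the part of this difference in the interaction was not tested. The 16 macrophage markers summed to 382 to 750.0 CPM in WT, 406 to 506 in MlxKO, 64.8 to 98.4 in MycKO and 134 to 303 in DKO libraries. In bulk RNA, fewer cells of a type and less RNA per cell cannot be told apart.

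**Figure D1:**
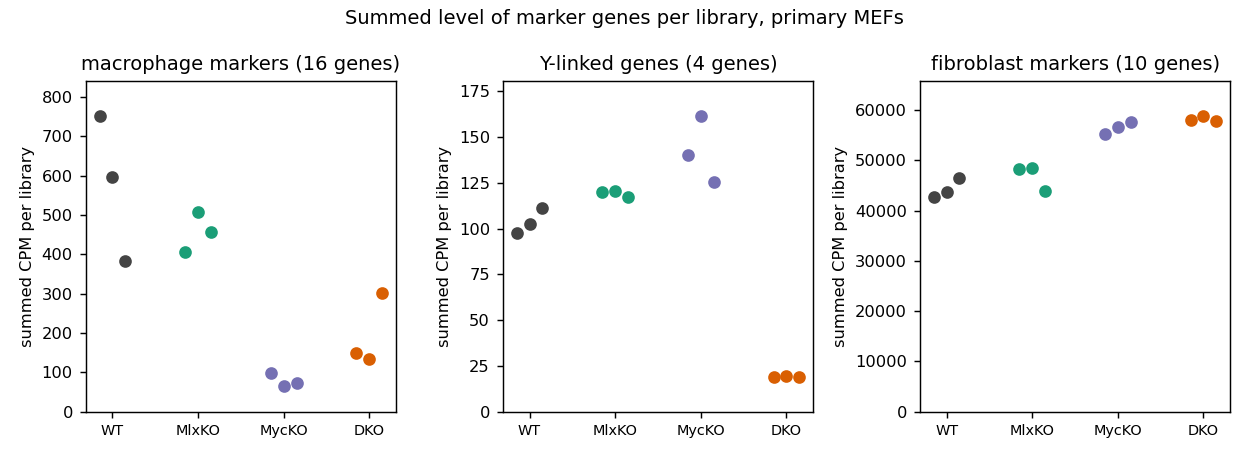
Summed CPM per library (y axis) of 16 macrophage markers, 4 Y-linked genes and 10 fibroblast markers in the 4 groups of primary MEFs (x axis, 3 points a group, 1 point a library). The DKO libraries hold 18.8 to 19.8 CPM of Y-linked RNA against at least 97.5 CPM elsewhere, and macrophage markers are lowest in the MycKO libraries, at 64.8 to 98.4 CPM.

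The effect of Mlx loss depended on Myc for 1774 of 13101 genes (13.5%), of which 979 had a positive interaction (7.47%) and 795 a negative interaction (6.07%). These calls came from limma, fitted to all 12 libraries, at a Benjamini-Hochberg adjusted p under 0.05. The median absolute interaction was 0.71 among the genes called, against a median of 0.17 over all genes and a median SE of 0.15. At least 1 log2 unit was reached by 510 of them, 340 positive and 170 negative. Without MycKO library 10 and WT library 3 the count was 2485, and it was 2179 without MycKO library 10 alone and 1534 without MlxKO library 7 alone.

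Mlx loss itself changed 1164 genes with Myc present (8.88%, made up of 3.75% higher and 5.14% lower) and 2818 without Myc (21.5%, made up of 10.6% higher and 11% lower). Loss of Myc changed 42.3% of genes with Mlx present (20.4% higher and 21.9% lower) and 49.1% without Mlx (23.3% higher and 25.9% lower). Leaving out MlxKO library 6, WT library 1 or WT library 2 lowered the count with Myc present to 735, 620 and 626, and leaving out MycKO library 10 raised it to 2025. Both comparisons called 557 genes, and 342 of them moved in the same direction and 215 in opposite directions. Across all 13101 genes the effects with and without Myc had a Pearson r of 0.051, as a description over genes that are not independent.

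The largest share of the 1774 genes, 1032 (58.2%), was called for Mlx loss only in the absence of Myc, with 562 higher and 470 lower in DKO than in MycKO libraries. Another 293 genes (16.5%) were called for Mlx loss only with Myc present, 128 of them higher and 165 lower in MlxKO than in WT libraries. A set of 215 genes (12.1%) was called in both backgrounds with opposite signs: 134 were lower with Myc and higher without it, and 81 were higher with Myc and lower without it. That set shrank to 139, 113 and 118 genes without MlxKO library 6, WT library 1 and WT library 2. Another 56 genes (3.16%) moved in the same direction in both backgrounds by different amounts, a number that fell to 36, 27, 30 and 27 without DKO library 15, MlxKO library 6, WT library 1 and WT library 2 and rose to 91 without MycKO library 10. The remaining 178 (10.0%) passed only the test of the difference. Without WT library 1 or 2 the genes called only with Myc fell to 164 and 171.

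**Figure D2:**
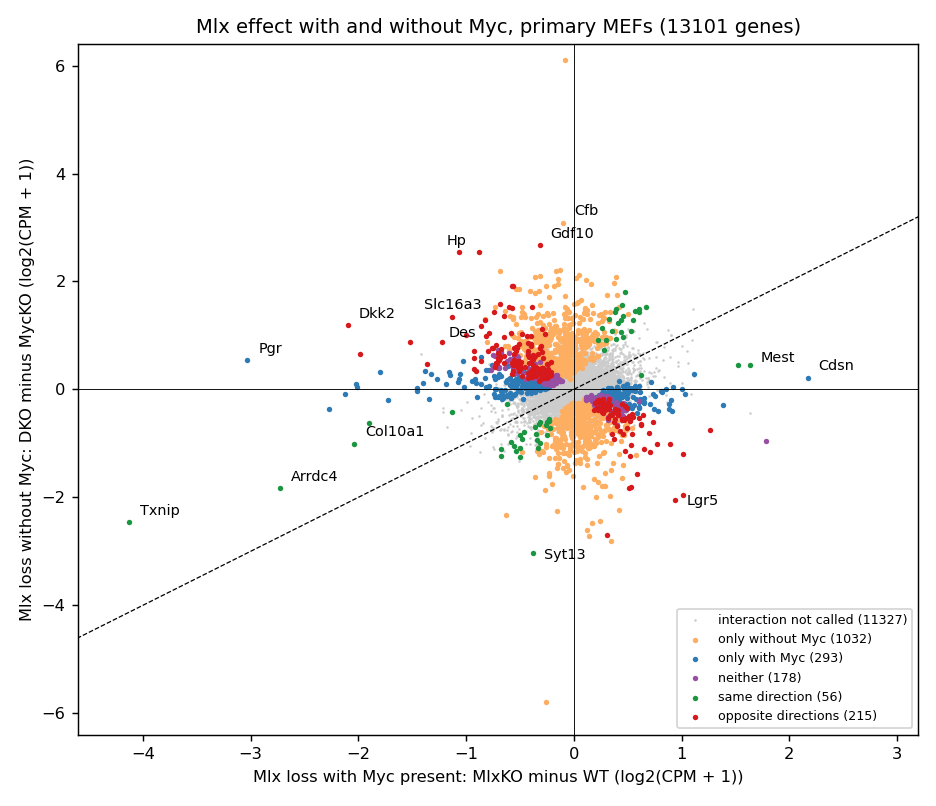
Effect of Mlx loss with Myc present (x axis, MlxKO minus WT) against its effect without Myc (y axis, DKO minus MycKO), both as differences of log2(CPM + 1), for 13101 genes; colours mark the classes of the 1774 genes whose interaction was called, and the dashed line marks equal effects. Txnip, Arrdc4 and Col10a1 lie below 0 on both axes, whereas Dkk2, Hp, Slc16a3 and Des lie below 0 with Myc and above 0 without it.

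The known MondoA targets Txnip and Arrdc4 fell with Mlx loss in both backgrounds, and fell less without Myc on the log2 scale. Of 10 listed targets tested, 5 had a positive and 0 a negative interaction by limma, edgeR and DESeq2 alike (1 negative at an unadjusted p under 0.05), against 7.47% and 6.07% of all genes. Mlx loss lowered 3 of the 10 with Myc, and lowered 4 and raised 3 without Myc. Txnip, an arrestin-family protein that restrains glucose uptake, read 122, 116 and 129 CPM in WT and 6.88, 6.4 and 5.03 in MlxKO libraries, and 132, 146 and 140.1 in MycKO and 23.7, 26.1 and 23.6 in DKO libraries. The groups did not overlap in either comparison: its mean in MlxKO was 0.0498 times that in WT, and its mean in DKO was 0.175 times that in MycKO (interaction 1.66 ± 0.13 SE, limma adjusted p = 3.21e-07). Its paralog Arrdc4 read 18.3, 19.3 and 21.5 CPM in WT, 1.76, 1.97 and 2.72 in MlxKO, 23.5, 28.4 and 25.6 in MycKO and 7.87, 5.7 and 6.28 in DKO libraries. The drop was -2.73 with Myc and -1.82 without (interaction 0.90 ± 0.19 SE, limma adjusted p = 0.00384). For both genes the size of the interaction depends on the scale. In CPM it was 1.44 for Txnip, small beside its WT and MycKO levels. For Arrdc4 the difference in CPM was larger without Myc and has the opposite sign, and the call was lost on a square root scale. Arrdc4 was the 1 gene of the 1774 with this change of sign.

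The promoters of these genes are shown because the elements that Mondo proteins bind are known. RefSeq windows of 300 bases (250 before to 50 after the start, build GRCm38.p6) were searched on both strands, with 10252 of the 13101 genes matched by symbol. The paired carbohydrate response element was searched as CACGNG, any 5 bases and CACGNG again, where N is any base, so that a CACGTG E-box is a form of each outer part.
Txnip (chr3:96557707-96558006, plus strand, capitals mark the paired element, which begins 85 bases before the start): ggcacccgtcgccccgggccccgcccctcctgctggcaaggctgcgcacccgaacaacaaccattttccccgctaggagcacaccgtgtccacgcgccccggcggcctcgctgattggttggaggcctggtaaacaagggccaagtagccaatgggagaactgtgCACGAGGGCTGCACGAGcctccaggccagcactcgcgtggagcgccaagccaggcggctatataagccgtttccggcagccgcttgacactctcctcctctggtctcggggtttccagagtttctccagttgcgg
Arrdc4 (chr7:68749189-68749488, minus strand, capitals mark CACGTG, 193 bases before the start): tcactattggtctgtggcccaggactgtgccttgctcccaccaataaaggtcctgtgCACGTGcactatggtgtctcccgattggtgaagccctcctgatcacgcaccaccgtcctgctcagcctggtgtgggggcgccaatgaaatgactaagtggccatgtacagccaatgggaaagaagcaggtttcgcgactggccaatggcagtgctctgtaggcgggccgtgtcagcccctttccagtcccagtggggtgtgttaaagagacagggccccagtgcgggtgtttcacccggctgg
Those letters were found in 16 of 32851 windows (0.0487%), in 0.0878% of the genes tested and in 1 of the 9 listed targets with a window. The E-box CACGTG alone was in 2349 windows (7.15%), in 4 of those 9 targets, in 7.2% of the genes with a positive interaction, in 14.8% of those with a negative interaction and in 11.7% of the genes tested. A match describes the letters and does not show binding.

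The other targets split by role. Arrdc3 read 19.3, 17.4 and 20.6 CPM in WT, 17, 21.5 and 15.7 in MlxKO, 16.6, 19.6 and 14.1 in MycKO and 25.9, 26.9 and 27.9 in DKO libraries (interaction 0.75, limma adjusted p = 0.00727). This arrestin-family gene rose without Myc, and its WT and MlxKO libraries overlapped. Klf10, a zinc-finger repressor, fell by 0.56 and 0.67 with and without Myc, with an interaction of -0.11 ± 0.14 SE that did not pass (limma adjusted p = 0.684). The lipogenic targets Acaca and Fasn had interactions of -0.21 and -0.22 (limma adjusted p = 0.338 and 0.115), and Khk and the low-level Fgf21 -0.39 and -0.47 (limma adjusted p = 0.486 and 0.418).

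Of the network's own 12 tested genes, only Mycl, a MYC paralog, was called (8.33%, against 13.5% of all genes). Mycl read 7.45, 6.08 and 7.48 CPM in WT, 3.41, 3.89 and 4.26 in MlxKO, 9.48, 8.31 and 10.4 in MycKO and 13.8, 13.7 and 13 in DKO libraries. It thus fell with Mlx loss when Myc was present and rose without Myc, with no overlap of groups in either comparison (interaction 1.21 ± 0.17 SE, limma adjusted p = 0.000111). Interactions of the other 11, which are Myc, Mycn, the partner Max, the repressors Mxd1, Mxi1, Mxd3, Mxd4, Mnt and Mga, and Mlx and Mlxip, lay between -0.19 and 0.33 and none passed the test. Mlxip alone passed without MlxKO library 5 (0.36) or without MycKO library 10 (0.33).

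**Figure D3:**
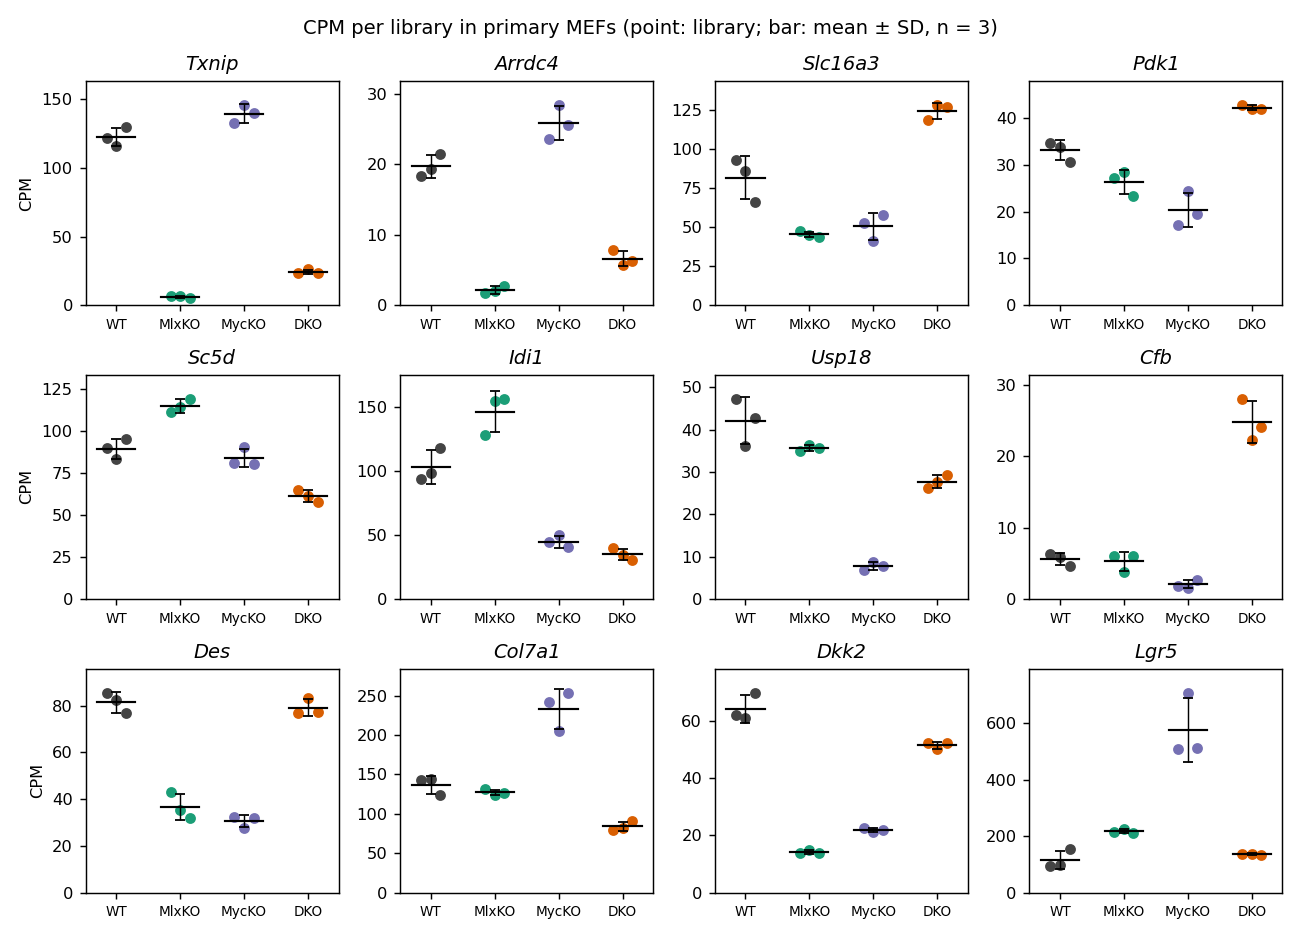
CPM (y axis, linear) in each of the 12 libraries for 12 genes, by group (x axis), with the mean and SD over 3 libraries. Txnip is lowest in MlxKO, at 6.88, 6.4 and 5.03 CPM, and Slc16a3 is highest in DKO, at 118, 128 and 127 CPM.

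Most glucose uptake and glycolysis genes were higher in DKO than in MycKO libraries, while many were lower in MlxKO than in WT. Of 20 tested, 15 had a positive interaction and 0 a negative interaction, with a list median of 0.61 against -0.01 over all genes. By unadjusted p under 0.05, edgeR and DESeq2 the negative count was 0 as well, as it was for the complement and contractile lists described below. Mlx loss lowered 9 of the 20 with Myc present and raised 0, and raised 14 and lowered 0 without Myc, with medians of -0.28 and 0.31. Slc16a3, the lactate exporter MCT4, read 92.8, 85.9 and 66.1 CPM in WT, 47.2, 45 and 43.5 in MlxKO, 52.8, 41.1 and 57.7 in MycKO and 118, 128 and 127 in DKO libraries. It was lower than WT in every MlxKO library and higher than MycKO in every DKO library (interaction 2.12 ± 0.17 SE, limma adjusted p = 3.26e-07). Pdk1, a kinase that inhibits pyruvate dehydrogenase, read 34.7, 33.9 and 30.7 CPM in WT, 27.1, 28.4 and 23.4 in MlxKO, 17.2, 24.5 and 19.4 in MycKO and 42.8, 41.9 and 41.9 in DKO libraries (interaction 1.35 ± 0.15 SE, limma adjusted p = 1.28e-05). The phosphofructokinase Pfkl had 110.2, 113 and 94.6 CPM in WT, 79.2, 76 and 78.5 in MlxKO, 98.2, 61.5 and 101 in MycKO and 148, 144 and 163 in DKO libraries (interaction 1.26, limma adjusted p = 0.00021). MycKO library 10 held the low value among its group.

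Other steps of glucose use were called as well. The glucose transporter Slc2a1 (GLUT1), chosen after its values were seen, read 131, 122 and 126 CPM in WT, 116, 127 and 135 in MlxKO, 119.9, 119.8 and 119 in MycKO and 185, 191 and 186 in DKO libraries (interaction 0.65, limma adjusted p = 6.59e-05). The hexokinase Hk2 and the phosphofructokinase activator Pfkfb3, counted above as glucose-responsive targets too, had interactions of 0.70 and 0.85 (limma adjusted p = 0.000673 and 0.000167). Lactate dehydrogenase Ldha, also chosen after its values were seen, read 1059, 1036 and 927 CPM in WT, 757, 798 and 897 in MlxKO, 663, 614 and 703 in MycKO and 862, 836 and 835 in DKO libraries (interaction 0.66, limma adjusted p = 0.00034) and fell with Myc present and rose without it. Slc2a3, Aldoc, Pkm, Pfkm and Slc16a1 were tested and not called, and Slc2a4 lay below the filter. The Ldha window is printed because E-boxes are known there.
Ldha (chr7:46845554-46845853, plus strand, capitals mark CACGTG at 145 and at 48 bases before the start): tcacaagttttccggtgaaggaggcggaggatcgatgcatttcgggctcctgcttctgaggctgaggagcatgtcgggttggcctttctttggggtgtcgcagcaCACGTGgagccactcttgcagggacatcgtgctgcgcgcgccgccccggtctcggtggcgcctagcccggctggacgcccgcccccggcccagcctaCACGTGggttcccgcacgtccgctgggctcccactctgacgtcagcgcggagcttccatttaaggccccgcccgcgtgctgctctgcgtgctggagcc
CACGTG was found in 4 of the 19 glycolysis genes with a window.

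Sterol synthesis enzymes moved the other way. Of 20 tested, 16 had a negative and 0 a positive interaction, with a median of -0.58. The positive count was also 0 at an unadjusted p under 0.05, by edgeR and by DESeq2. Mlx loss raised 14 of them with Myc present and lowered 9 without Myc, with 0 in the opposite direction in either. Sc5d, a late desaturase of cholesterol synthesis, read 89.8, 83.3 and 95.2 CPM in WT, 111, 114 and 119 in MlxKO, 81.3, 90.3 and 80.4 in MycKO and 64.7, 61.5 and 57.8 in DKO libraries. Its groups did not overlap in either comparison (interaction -0.81 ± 0.10 SE, limma adjusted p = 3.09e-05). Idi1, which isomerizes the isoprenoid unit, read 93.3, 98.1 and 118 CPM in WT, 128, 154 and 156 in MlxKO, 44.1, 49.7 and 40.4 in MycKO and 39.5, 34.5 and 30.7 in DKO libraries (interaction -0.85 ± 0.16 SE, limma adjusted p = 0.00118). Nsdhl, a late enzyme encoded on chromosome X, had 27.2, 28.8 and 27.2 CPM in WT, 35.6, 39.7 and 44.3 in MlxKO, 19.2, 17.7 and 17.2 in MycKO and 16.9, 15 and 11.3 in DKO libraries (interaction -0.82, limma adjusted p = 0.00291). The upstream synthase Hmgcs1, chosen after its values were seen, had an interaction of -0.59 (limma adjusted p = 0.000916).

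The regulatory genes of sterol metabolism were less uniform: 3 of 18 tested were negative and 1 positive. That is 16.7% and 5.56%, against 6.07% negative and 7.47% positive among all genes. Insig1, which retains the sterol sensor in the endoplasmic reticulum, changed by 0.29 with Myc and by -0.32 without, both past the test (interaction -0.61, limma adjusted p = 0.000507). The sterol carrier Stard4 had an interaction of -0.59 (limma adjusted p = 0.01). The efflux transporter Abca1 went the other way, at 0.49 (limma adjusted p = 0.03), a call lost when any of 7 single libraries was left out (DKO 13 or 15, MlxKO 7, MycKO 9 or 11, WT 1 or 2). Of 16 fatty acid synthesis genes 5 were negative, led by Acss2, which makes acetyl-CoA from acetate and read 7.84, 7.55 and 7.3 CPM in WT, 13.1, 14.1 and 12.6 in MlxKO, 5.71, 5.04 and 5.18 in MycKO and 4.8, 5.49 and 4.49 in DKO libraries (interaction -0.82, limma adjusted p = 0.00152). Without DKO library 15 that count was 3. The 5 were 31.25% of the fatty acid list, against 6.07% negative among all genes. Acsl3 and Fads3 had -0.43 and -0.35 (limma adjusted p = 0.0146 and 0.0115). The Hmgcs1 window, printed because the letters TCACCCCAC are a known sterol element, is given below.
Hmgcs1 (chr13:119690101-119690400, plus strand, capitals mark TCACCCCAC, 137 bases before the start): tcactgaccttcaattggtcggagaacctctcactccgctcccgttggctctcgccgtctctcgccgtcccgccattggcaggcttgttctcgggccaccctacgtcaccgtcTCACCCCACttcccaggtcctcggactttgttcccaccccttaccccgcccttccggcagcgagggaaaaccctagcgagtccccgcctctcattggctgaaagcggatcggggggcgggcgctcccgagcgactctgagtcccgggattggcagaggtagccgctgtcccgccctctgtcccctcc
The letters occurred in 181 of all windows (0.551%), in 1 of the 15 sterol synthesis genes with a window and in 9 of 583 genes with a negative interaction (1.54%). Counted by gene, they occurred in 0.693% of the genes tested.

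Interferon-stimulated genes had higher levels in DKO than in MycKO libraries and changed little between MlxKO and WT. Of 22 tested, 18 had a positive and 0 a negative interaction, and 20 were higher in DKO than MycKO, against 3 higher and 0 lower in MlxKO than WT. Of the 22, 1 was negative at an unadjusted p under 0.05, and 0 by edgeR or DESeq2. The list medians were 0.01 with Myc and 0.96 without. Usp18, a protease that removes the ubiquitin-like ISG15, read 47.3, 36.2 and 42.8 CPM in WT, 34.9, 36.4 and 35.6 in MlxKO, 6.93, 8.76 and 7.77 in MycKO and 26.3, 27.7 and 29.2 in DKO libraries (interaction 1.93 ± 0.14 SE, limma adjusted p = 1.56e-07). Irf7, a transcription factor of the pathway, read 39.2, 26.6 and 30.1 CPM in WT, 24, 20.5 and 26.8 in MlxKO, 8.59, 5.89 and 9.27 in MycKO and 26.5, 29.5 and 35.1 in DKO libraries (interaction 2.23 ± 0.23 SE, limma adjusted p = 4.36e-06). Ifi44 followed with 41.4, 32.7 and 41.6 CPM in WT, 39.3, 43.2 and 42.3 in MlxKO, 5.82, 7.85 and 6.18 in MycKO and 30.1, 29 and 30.5 in DKO libraries (interaction 1.92, limma adjusted p = 3.75e-07). WT and MlxKO libraries overlapped for all 3 genes, while MycKO libraries held the lowest values. Isg15, Oas1a and Ifit1, chosen after their values were seen, had interactions of 1.37, 1.57 and 0.91, and Ifit2, Ifit3, Rsad2 and Oas2 were not called.

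Promoter windows of this group are printed because the interferon response element holds GAAA, any 2 bases and GAAA again, the letters searched.
Isg15 (chr4:156200769-156201068, minus strand, capitals mark overlapping matches at 78, 72 and 66 bases before the start): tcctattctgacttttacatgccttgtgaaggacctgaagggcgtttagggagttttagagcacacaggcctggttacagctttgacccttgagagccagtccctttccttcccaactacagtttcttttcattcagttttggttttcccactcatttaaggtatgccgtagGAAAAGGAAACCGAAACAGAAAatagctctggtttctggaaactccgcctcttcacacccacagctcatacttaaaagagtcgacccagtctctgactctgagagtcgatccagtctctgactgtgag
Oas1a (chr5:120907476-120907775, minus strand, capitals mark overlapping matches at 20 and 14 bases before the start): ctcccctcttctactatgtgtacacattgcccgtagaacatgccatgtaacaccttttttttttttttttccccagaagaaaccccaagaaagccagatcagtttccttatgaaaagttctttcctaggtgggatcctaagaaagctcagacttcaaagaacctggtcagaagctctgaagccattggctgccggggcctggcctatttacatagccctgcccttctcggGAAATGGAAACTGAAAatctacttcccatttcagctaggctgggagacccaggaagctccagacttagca
The letters were in 10 of the 16 listed genes with a window (62.5%) and in 1131 of all 32851 windows (3.44%). Counted by gene, they were in 3.74% of the genes tested. The share was 9.38% of the genes with a positive interaction and 3.77% of those with a negative interaction.

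Complement and acute phase genes had a list median of 1.67, with 12 of 13 tested positive and 0 negative. Over members with a mean of at least 5 CPM the median was 1.02. Mlx loss raised 11 of the 13 without Myc and lowered 3 with Myc. Cfb, complement factor B of the alternative pathway, read 6.26, 5.92 and 4.68 CPM in WT, 6.02, 3.77 and 5.96 in MlxKO, 1.88, 1.57 and 2.69 in MycKO and 28, 22.2 and 24.1 in DKO libraries (interaction 3.19 ± 0.24 SE, limma adjusted p = 2.15e-07). Every DKO library exceeded every library of the other groups, although 57.3% of its 50-base transcript stretches are also held by annotated transcripts of another gene. Haptoglobin Hp and the serum amyloid gene Saa3 lay lower, at 11.3, 10.7 and 13.4 and 7.51, 7.08 and 12.2 CPM in DKO and 1.44, 1.11 and 1.05 and 1.5, 0.262 and 0.448 CPM in MycKO libraries (interactions 3.42 and 3.61, limma adjusted p = 8.63e-08 and 1.63e-06). Serping1 was not called.

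Chemokines and secreted cytokines split: of 19 tested, 8 were positive and 3 negative (42.1% and 15.8%, against 7.47% and 6.07% of all genes). Ccl5 read 7.79, 5.92 and 3.04 CPM in WT, 2.99, 2.51 and 3.24 in MlxKO, 0.887, 0.589 and 0.747 in MycKO and 6.03, 7.18 and 7.83 in DKO libraries (interaction 2.88 ± 0.30 SE, limma adjusted p = 6.4e-06). Cxcl12, a stromal chemokine, read 241, 246 and 301 CPM in WT, 228, 228 and 196 in MlxKO, 258, 243 and 249.5 in MycKO and 522, 503 and 504 in DKO libraries (interaction 1.29 ± 0.11 SE, limma adjusted p = 8.68e-07). Ccl9 had an interaction of 1.81 (limma adjusted p = 0.000656). The 3 negative genes, chosen after their values were seen, were Ccl7, Ccl2 and Il33. They had -1.28, -0.96 and -0.83 (limma adjusted p = 9.18e-05, 0.00282 and 0.0305).

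Macrophage markers also had mostly positive interactions. Of 15 tested, 13 had a positive and 0 a negative interaction (0 negative also at an unadjusted p under 0.05, by edgeR and by DESeq2), with a median of 1.33. Itgam read 25.9, 19.9 and 14.9 CPM in WT, 11.8, 13.6 and 14.5 in MlxKO, 3.55, 2.09 and 2.04 in MycKO and 10.5, 8.98 and 17 in DKO libraries (interaction 2.4, limma adjusted p = 4.04e-05), though 63.5% of its stretches are shared with other annotated genes. C1qa and Cd14 had 1.69 and 1.59 (limma adjusted p = 0.0127 and 0.00744), and the C1qa call was lost without the filter and with a robust prior. The list sum was 150.4, 134 and 303 CPM in DKO libraries 13, 14 and 15. The count of 13 was 7, 7, 6, 7, 6 and 6 without DKO library 15, MlxKO library 5, MlxKO library 7, MycKO library 11, WT library 1 and WT library 2, and 15 without MycKO library 10 and WT library 3. Other contrasts differed between these lists. In DKO against MlxKO libraries, macrophage markers were called lower for 14 of 15 and higher for 0. Interferon-stimulated genes were lower for 14 of 22 and higher for 1. Complement and acute phase genes were higher for 13 of 13. Chemokines and secreted cytokines were higher for 10 and lower for 5 of 19. Among all genes tested, 23.3% were higher and 25.9% lower in this comparison. The part of macrophage RNA in the interferon, complement and chemokine results was not tested.

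**Figure D4:**
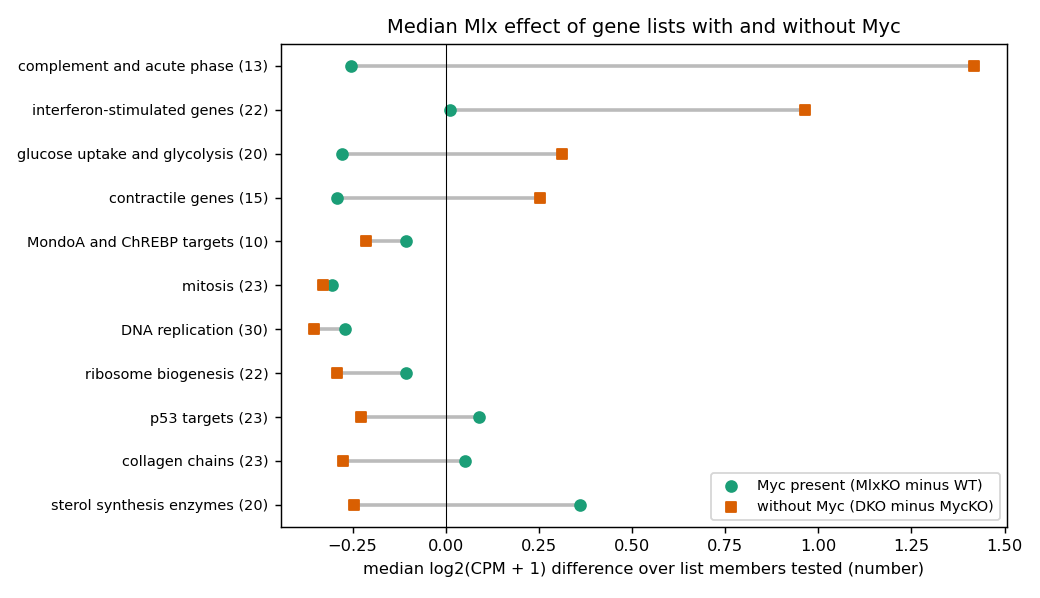
Median difference of log2(CPM + 1) for Mlx loss (x axis) with Myc present (circles, MlxKO minus WT) and without Myc (squares, DKO minus MycKO) over the tested members of 11 gene lists, with the number of members tested in parentheses. Complement and acute phase genes have medians of -0.26 and 1.42, and sterol synthesis enzymes 0.36 and -0.25.

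Some contractile genes fell with Mlx loss when Myc was present and some rose without it. Of 15 tested, 4 were lower in MlxKO than in WT and 6 higher in DKO than in MycKO libraries, and 9 had a positive and 0 a negative interaction, with medians of -0.29 with Myc and 0.25 without. Des, the muscle intermediate filament desmin, read 85.5, 82.3 and 76.6 CPM in WT, 43, 35.4 and 32.1 in MlxKO, 32.5, 27.9 and 31.8 in MycKO and 76.8, 83.2 and 77.2 in DKO libraries. Loss of either gene alone thus left it well below WT, and the DKO level was near WT (interaction 2.47 ± 0.13 SE, limma adjusted p = 3.99e-09). The calponin Cnn1 read 215, 205 and 176 CPM in WT, 149, 138 and 157 in MlxKO, 285, 251 and 306 in MycKO and 424, 430.0 and 418 in DKO libraries (interaction 1.02, limma adjusted p = 1.28e-05). The smooth muscle myosin Myh11 read 33.7, 34.7 and 23.7 CPM in WT, 21.6, 25 and 22.4 in MlxKO, 94.3, 77.1 and 96.4 in MycKO and 144, 144 and 160.5 in DKO libraries (interaction 1.13, limma adjusted p = 0.000222). Acta2, Tagln, Actg2, Cald1, Synpo2 and Myocd were not called. The skeletal muscle marker Acta1 had 0.60 (limma adjusted p = 0.00239).

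Collagen chains leaned negative, with 11 of 23 negative and 2 positive (47.8% and 8.70%, against 6.07% and 7.47% of all genes). Col7a1, the anchoring fibril chain, read 142, 144 and 124 CPM in WT, 131, 124 and 127 in MlxKO, 242, 205 and 254 in MycKO and 79.4, 82.3 and 91.1 in DKO libraries (interaction -1.36 ± 0.12 SE, limma adjusted p = 7.64e-07). WT and MlxKO libraries overlapped, whereas MycKO libraries lay above all others and DKO libraries below. Col5a3 read 204, 207 and 216 CPM in WT, 306, 287 and 240.0 in MlxKO, 225, 184 and 246 in MycKO and 131, 134 and 143 in DKO libraries (interaction -1.07, limma adjusted p = 3.86e-05). Col10a1, a hypertrophic cartilage collagen, fell with Mlx loss in both backgrounds and less so without Myc. It read 540.0, 511 and 698 CPM in WT, 145, 139 and 136 in MlxKO, 89.7, 89.3 and 93.7 in MycKO and 45.8, 46.3 and 42.3 in DKO libraries (interaction 1.03, limma adjusted p = 2.79e-05). Neither Col1a1 nor Col1a2 was called.

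Matrix proteases and inhibitors had 8 positive and 4 negative of 20 (40% and 20%, against 7.47% and 6.07% of all genes). The negative genes, chosen after their values were seen, were Adamts1 at -1.10, Adamts2 at -0.80, Timp3 at -0.63 and Adamts5 at -0.53. Mmp9, a gelatinase, read 52.4, 48.8 and 33.5 CPM in WT, 17.4, 15.6 and 16.7 in MlxKO, 36, 33.4 and 37.2 in MycKO and 45.7, 49.3 and 54.4 in DKO libraries (interaction 1.83 ± 0.18 SE, limma adjusted p = 2.66e-06). Mmp10 and Mmp12 had 1.41 and 1.42 (limma adjusted p = 0.000149 and 0.021), the latter lost without DKO library 15, MlxKO library 7, WT library 1 or WT library 2.

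Cell-cycle genes showed little interaction. Of 23 mitosis genes 0 were called by limma (1 at an unadjusted p under 0.05, and 1 each by edgeR and DESeq2). Of 30 DNA replication genes 2 were negative (6.67%, against 6.07% of all genes) and 0 positive. Mlx loss nonetheless lowered 11 and 18 of the 30 replication genes with and without Myc, and 13 and 17 of the 23 mitosis genes. Cdt1, a replication licensing factor, read 40, 33.8 and 32.5 CPM in WT, 31.2, 31.8 and 33.2 in MlxKO, 21.5, 20.3 and 24.2 in MycKO and 13, 14.6 and 14.6 in DKO libraries (interaction -0.47, limma adjusted p = 0.0256). Mcm2, of the replicative helicase, had -0.36 (limma adjusted p = 0.0187). The Cdt1 call was lost without DKO library 13, MlxKO library 7, MycKO library 11, WT library 2 or WT library 3, and the Mcm2 call without DKO library 14 or MycKO library 11.

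Of 10 CDK inhibitor and Rb family genes, Cdkn2b and Cdkn1a were negative and the other 8 were not called by limma (1 of them was positive by edgeR and 1 by DESeq2). Cdkn2b (p15) read 31.8, 31.8 and 36.2 CPM in WT, 43.8, 48.1 and 52.2 in MlxKO, 71.7, 60.6 and 71.7 in MycKO and 46.4, 44.8 and 44.1 in DKO libraries. It rose with Mlx loss when Myc was present and fell without it, with no overlap of groups (interaction -1.1 ± 0.12 SE, limma adjusted p = 1.07e-05). Cdkn1a (p21), which is both a CDK inhibitor and a p53 target, read 301, 315 and 297 CPM in WT, 333, 322 and 349 in MlxKO, 457, 422 and 447 in MycKO and 354, 339.8 and 351 in DKO libraries (interaction -0.48 ± 0.08 SE, limma adjusted p = 0.000507). The list of 23 p53 targets had 9 negative and 1 positive, with Ddit4l, Ccng1 and Polk at -0.88, -0.74 and -0.60 (limma adjusted p = 0.00373, 0.00068 and 0.00318). That is 39.1% negative and 4.35% positive, against 6.07% and 7.47% of all genes. The p53 ubiquitin ligase Mdm2, chosen after its values were seen, had -0.38 (limma adjusted p = 0.0167), a call that was lost without DKO library 15 or without MlxKO library 6.

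Of 22 ribosome biogenesis genes, a group known for dependence on Myc, 3 were negative and 0 positive. That is 13.6%, against 6.07% negative and 13.5% called among all genes. The 3 were Wdr12 -0.42, Rrp12 -0.41 and Wdr43 -0.35 (limma adjusted p = 0.0167, 0.0382 and 0.037). Without DKO library 15 all 3 calls were lost, and the Rrp12 and Wdr43 calls were lost without any of 7 and 8 single libraries. Mlx loss lowered 14 of the 22 without Myc and 1 with Myc. Respiratory chain genes had 1 of 20 called (5%, against 13.5% of all genes), Uqcrc1 at -0.30 (limma adjusted p = 0.0291), a call lost without any of 7 single libraries. ATF4-response genes had 5 of 18 negative (27.8%, against 6.07% of all genes). The serine synthesis enzymes Psph and Phgdh had -0.69 and -0.68 and Trib3 -0.44 (limma adjusted p = 0.000323, 9.18e-05 and 0.0117). The ATF4 count was 3 without DKO library 15 or without WT library 1 and 9 without MycKO library 10. Lysosome genes had 5 negative and 1 positive of 23 (9 negative without MycKO library 10). That is 21.7% negative and 4.35% positive, against 6.07% and 7.47% of all genes. The glycoprotein Gpnmb read 156, 159 and 151 CPM in MycKO and 56.8, 54.1 and 61 in DKO libraries (interaction -1.36, limma adjusted p = 5.97e-08). NRF2 genes had 2 of 17 negative and 0 positive (11.8% called, against 13.5% of all genes). These were the glutathione transferase Gsta4 at -1.62 and the quinone reductase Nqo1 at -0.54 (limma adjusted p = 8.16e-06 and 0.0438), the latter lost without any of 8 single libraries.

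**Figure D5:**
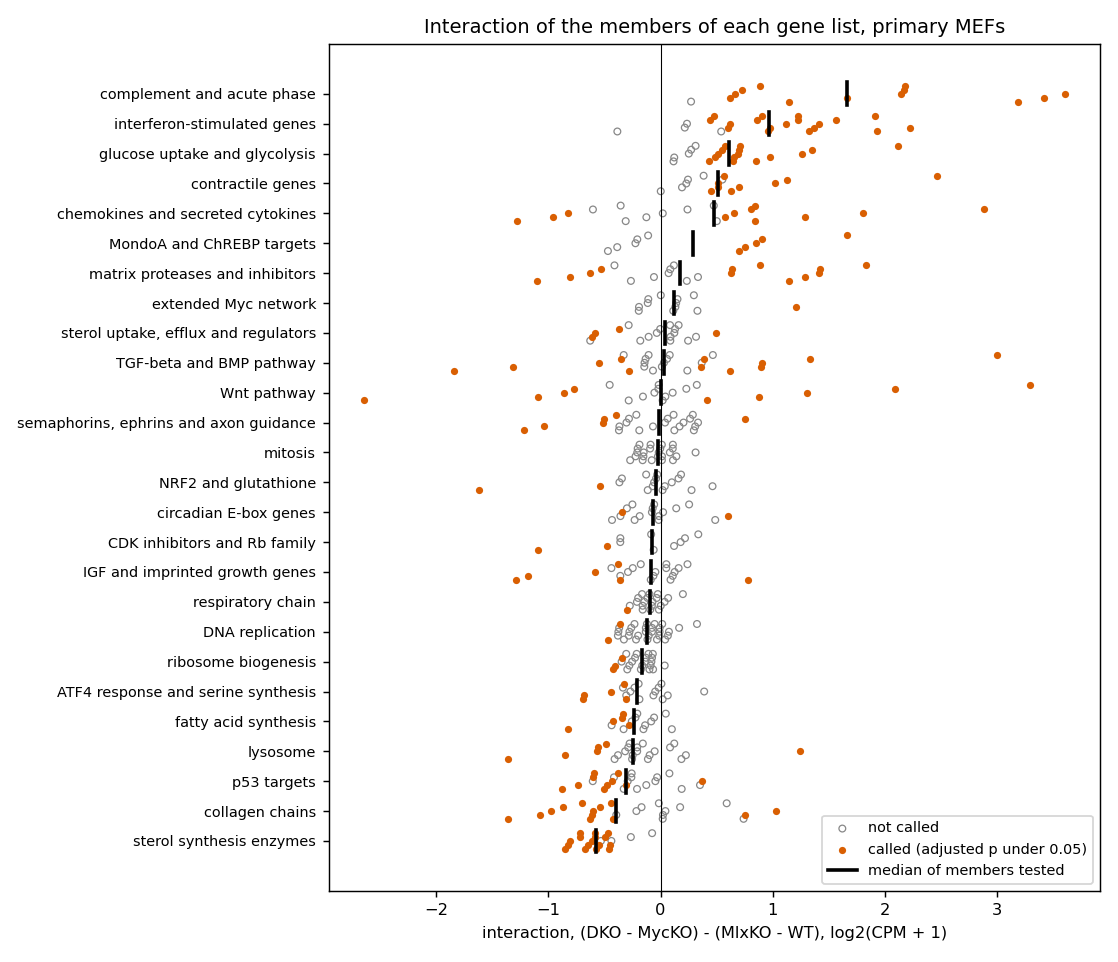
Interaction on log2(CPM + 1) (x axis) of each tested member of 26 gene lists, ordered by list median (black bar), with filled points for members called and open points for members that did not pass. The lists run from complement and acute phase, median 1.67, to sterol synthesis enzymes, median -0.58.

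Secreted signals of the Wnt and TGF-beta families included genes with large interactions. Dkk2, a Wnt antagonist, read 62, 60.8 and 69.8 CPM in WT, 13.8, 15.1 and 13.8 in MlxKO, 22.6, 21.4 and 21.8 in MycKO and 52.2, 50.1 and 52.3 in DKO libraries, so its MlxKO libraries were the lowest and its WT libraries the highest (interaction 3.29 ± 0.11 SE, limma adjusted p = 1.14e-11). The secreted Wnt antagonist Sfrp1 read 94.5, 97.4 and 119 CPM in WT, 98.7, 92 and 87.8 in MlxKO, 264, 235 and 240.4 in MycKO and 952, 897 and 1009 in DKO libraries (interaction 2.1 ± 0.12 SE, limma adjusted p = 4.72e-09). Wnt4, a ligand, went the other way with 36, 32.5 and 33.9 CPM in MycKO and 6.29, 5.6 and 7.77 in DKO libraries (interaction -2.65, limma adjusted p = 4.28e-07). The Wnt list held 5 positive and 4 negative of 20 (25% and 20%, against 7.47% and 6.07% of all genes).

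The TGF-beta and BMP list held 7 positive and 5 negative of 25 (28% and 20%, against 7.47% and 6.07% of all genes). Gdf10, a BMP-like ligand, read 20.9, 23.9 and 24.1 CPM in WT, 18.6, 18.3 and 17.7 in MlxKO, 13.6, 11.3 and 14.1 in MycKO and 87.8, 85.6 and 91.6 in DKO libraries (interaction 3.0 ± 0.13 SE, limma adjusted p = 2e-10). The ligand Gdf6 was also positive at 1.33, and the BMP antagonist Nog negative at -1.84 (limma adjusted p = 0.000442 and 0.00056). The negative count was 3 when any of DKO library 14 or 15, MlxKO library 5 or 6, or WT library 1 or 2 was left out.

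IGF-axis and imprinted genes had 1 positive and 5 negative of 21 (4.76% and 23.8%, against 7.47% and 6.07% of all genes). Igfbp5 read 226, 258 and 251 CPM in WT, 355, 316 and 282 in MlxKO, 557, 552 and 546 in MycKO and 288, 279 and 305 in DKO libraries, higher in MlxKO than WT and lower in DKO than MycKO (interaction -1.29 ± 0.11 SE, limma adjusted p = 5.24e-07). The imprinted Mest had a smaller rise without Myc, 1.63 against 0.45 (interaction -1.19, limma adjusted p = 1.42e-05), and Igfbp4 rose without Myc by 1.06 (interaction 0.78, limma adjusted p = 0.000279). Of 24 axon guidance genes 1 was positive and 5 were negative (4.17% and 20.8%, against 7.47% and 6.07%). Sema5a, Ntn1 and Sema7a had -1.22, -1.04 and 0.75 (limma adjusted p = 0.000101, 4.99e-05 and 0.00382), the last lost on a square root scale. The negative axon guidance count was 3 without DKO library 15, MlxKO library 6, WT library 1 or WT library 2. Of 17 circadian genes, Nfil3 was positive at 0.61 and Nr1d2 negative at -0.35 (limma adjusted p = 0.000641 and 0.035), the latter lost without any of 7 single libraries. Each direction held 5.88% of the circadian list, against 7.47% positive and 6.07% negative among all genes.

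Among the genes with the largest interactions, Pgr, the progesterone receptor, read 11.7, 13.3 and 12 CPM in WT, 0.426, 1.08 and 0.462 in MlxKO, 0.111, 0.262 and 0.548 in MycKO and 0.511, 1.53 and 0.749 in DKO libraries, with every WT library above every library of the other groups (interaction 3.57 ± 0.29 SE, limma adjusted p = 4.45e-07). MycKO values this near the floor leave its Mlx effect without Myc poorly determined, and that effect is given only as the fitted log2 difference of 0.54 (limma adjusted p = 0.0726). Lgr6, an R-spondin receptor, had the same form with 7.84, 7.82 and 8.24 CPM in WT and under 2 CPM in every other library (interaction 2.03, limma adjusted p = 2.74e-06). Genes this low in MycKO can hardly fall further with Mlx loss. The positive sign for Pgr and Lgr6 was therefore largely set by their drop from WT. The Lgr6 relative Lgr5 was negative, at 95, 99.4 and 154 CPM in WT, 216, 228 and 212 in MlxKO, 509.9, 709 and 512 in MycKO and 139, 139 and 133 in DKO libraries (interaction -2.99 ± 0.20 SE, limma adjusted p = 6.58e-08).

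The synaptotagmin Syt13 read 49.4, 48.8 and 56.3 CPM in WT, 38.7, 37 and 42.7 in MlxKO, 216, 192 and 227 in MycKO and 26.5, 23.3 and 24.8 in DKO libraries (interaction -2.66 ± 0.12 SE, limma adjusted p = 2.78e-10). Cdsn, corneodesmosin, read 9.2, 11.9 and 16 CPM in WT, 62.6, 56.8 and 54.7 in MlxKO, 9.09, 9.75 and 11.1 in MycKO and 12.8, 11.6 and 10.8 in DKO libraries, a rise with Mlx loss only while Myc was present (interaction -1.95 ± 0.20 SE, limma adjusted p = 5.56e-06). The interleukin 1 receptor antagonist Il1rn rose in both backgrounds, by 0.39 with Myc and 1.49 without (limma adjusted p = 1.33e-06 for the difference). P2rx3, Reg1 and Cyp4b1 had MycKO values of 12.8, 10 and 11.6, 11.3, 10.5 and 9.07 and 13.5, 9.03 and 12.2 CPM. In the other libraries they were low, at 0.562 to 2.36, 0.706 to 2.51 and 1.52 to 4.78 CPM, so their fitted differences depend on the pseudocount. They had interactions of -3.16, -2.72 and -2.97 (limma adjusted p = 1.06e-07, 1.23e-05 and 6.81e-07).

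Kpna2, an importin, had an interaction of -5.54, and its copy Gm10184, chosen after its values were seen, had 6.19. Kpna2 read 1.92, 2.23 and 2.63 CPM in WT, 1.01, 1.55 and 2.88 in MlxKO, 155, 205 and 157 in MycKO and 2.15, 1.53 and 2.71 in DKO libraries, and Gm10184 read 242, 230.1 and 263, 217, 235 and 241, 0.832, 0.458 and 2.04 and 138, 146 and 128 CPM in the same groups. Of the 50-base stretches of Gm10184, 99% are held by another gene, and of those of Kpna2 44.8%. How reads were divided between them is uncertain, and the sum of both had an interaction of -0.22.

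Markers of other cell types gave further values. Krt18 and Krt8, keratins of simple epithelia, had 2.65 and 1.54 (limma adjusted p = 2.69e-06 and 0.00226), at 12.1, 10.4 and 9.06 and 7.0, 5.97 and 7.01 CPM in WT, and the Krt8 call was lost by edgeR and with a pseudocount of 0.1. Of 10 epithelial markers, 3 were tested, with median Mlx effects of -1.73 with Myc and -0.19 without. All 10 summed to 25.8 to 30.3 CPM in WT libraries. The sums were 8.58 to 11.6 CPM in MlxKO, 7.06 to 9.61 in MycKO and 6.13 to 7.61 in DKO libraries. The endothelial markers Kdr and Erg had 1.28 and 1.28 (limma adjusted p = 0.000372 and 7.18e-05), with 3 of 8 endothelial markers tested and 2 of the 8 at 0 in all 3 WT libraries. The glial markers Sox10 and S100b had -1.2 and 0.98 (limma adjusted p = 8.17e-05 and 0.00872), S100b not being called by edgeR or DESeq2. Of 7 cartilage and bone markers tested, 4 had a positive and 0 a negative interaction by limma, edgeR and DESeq2 alike (2 negative at an unadjusted p under 0.05), among them Col2a1 and Comp at 1.28 and 1.68 (limma adjusted p = 6.39e-06 and 0.000142). Without Myc, Mlx loss raised 3 of the 7 and lowered 3, namely Col10a1 and, chosen after their values were seen, Acan and Sox9. Of 18 Hox genes, which mark body position, 3 were positive and 1 negative (16.7% and 5.56%, against 7.47% and 6.07% of all genes). Hoxa3, Hoxa5 and Hoxd13 had 0.92, 0.84 and -0.75 (limma adjusted p = 0.00398, 0.0059 and 0.00709). The fatty acid transporter Cd36, an adipocyte marker that macrophages also express, had 2.01, and lipoprotein lipase Lpl -0.49 (limma adjusted p = 0.00119 and 0.0349), the Lpl call being lost by edgeR and without any of 8 single libraries. Of the 10 fibroblast markers, Vim and Pdgfrb were negative (-0.48 and -0.42) and 2 were positive, led by Lum at 0.54. The Lum call was lost without any of 5 single libraries (DKO 13 or 15, MlxKO 5, MycKO 11, WT 3) and the Vim call without the filter. The part of these markers in the results above was not tested.

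The same contrast was computed in immortalized MEFs, which carry SV40 T-antigen and were made from the same cultures. They share no library with the primary table, were normalized separately and were fitted on their own. The lowest Pearson r between libraries of a group was 0.990 in primary and 0.943 in immortalized MEFs. The paper reports that most MycKO cells became tetraploid or pseudo-tetraploid once immortalized. The part of this change in the immortalized contrast was not tested. The interaction was called for 6108 of 12880 genes (47.4%), 23.7% positive and 23.8% negative. Of the 1774 primary calls, 1570 were tested there, 412 were called in the same direction (26.2% of the primary calls tested, and 6.99% of the immortalized calls tested in primary cells) and 479 in the opposite direction (30.5%). Across the 1570 genes the interactions had a Pearson r of 0.011. Interferon-stimulated genes had 0 positive and 7 negative calls among 23 tested, contractile genes 0 and 10 among 13, glycolysis genes 3 and 9 among 20 and sterol synthesis enzymes 4 and 6 among 20. The Y-linked genes had 4 of 4 negative calls in immortalized as in primary cells. The MondoA and ChREBP targets had 3 positive and 0 negative calls among 10, with Arrdc4 at 1.39 and Arrdc3 at 1.80 (limma adjusted p = 0.00872 and 0.000149). Txnip had -0.71 (limma adjusted p = 0.143) and Slc16a3 -1.80 (limma adjusted p = 0.00109) in immortalized cells.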

How the data were processed

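RNA-seq of 12 primary MEF libraries in 4 groups was analysed. Per the labels, poly-A RNA was made into directional libraries, and per the methods reads were mapped to GRCm39 and counted per gene with CLC Genomics Workbench. The authors deposited a signal headed CPM, with library sums of 950106 to 1051865, so it was used as scaled by the authors, whose scaling is not given in the sources used here. All nonzero values (100%) were whole multiples of the value of 1 read (tolerance 0.01 read). This gave depths of 15986856 to 20966163 reads and the counts used with edgeR 4.0.16 and DESeq2 1.42.0 as alternatives. Library numbers in the column names are not tied to replicate numbers, so only groups were used.

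Genes that reached 1 CPM in 3 or more libraries were fitted on log2(CPM + 1) with limma 3.58.1 under R 4.3.3, letting the variance prior follow the mean, all 12 libraries in a single fit, 2-sided tests and Benjamini-Hochberg adjustment over 13101 genes at 0.05. Immortalized libraries were fitted separately in the same way. The members and gene lists were chosen with earlier results of these data known. Genes were named by a rule: all measured members of the Myc network and of the MondoA and ChREBP targets, up to 3 called members with the largest interaction of each other list, the 8 largest interactions of each sign, and up to 3 genes of smallest p in each class. Unnamed gene models were left out of the last 2 groups, and genes outside the rule are marked as chosen after their values were seen. Some genes under the rule are not reported here. Reads were also simulated for 12985 genes of the primary comparison. By limma, 18 of 49 genes (36.7%) changed by 0.5 log2 units and 45 of 50 (90.0%) changed by 1 were recovered. For changes of 1.5 and 2 log2 units it recovered 46 of 49 (93.9%) and 46 of 50 (92.0%). Of 12787 unchanged genes, limma called 17, edgeR 6 and DESeq2 13. Few genes were changed, and the 17 false calls were more than 0.05 of all limma calls in the simulation. Chi-square values per gene between libraries of a group were 3.13 to 25.3, so none was counted as a duplicate. Shared stretches of 50 bases were counted over GENCODE transcripts, and promoter windows were RefSeq sequences matched by symbol. Beyond Cfb, Itgam, Kpna2 and Gm10184, the shared part was largest for Acaca (28.2%), Phgdh (28.1%), Krt8 (25.1%), Idi1 (17.0%) and Oas1a (15.7%). Alternatives were other scalings, filters, pseudocounts, priors, a square root scale, both count tools and leaving out each library.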

Additional observations from a re-analysis of the deposited data

Results flagged for a closer look

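The interaction test itself called 1774 genes (limma with Benjamini-Hochberg adjustment). Genes of this kind that were named for their size or their p-value follow, each as its interaction on log2(CPM + 1).

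Positive interactions were 3.61 for Saa3, 3.57 for Pgr, 3.42 for Hp, 3.29 for Dkk2, 3.19 for Cfb, 3.0 for Gdf10, 2.88 for Ccl5 and 2.65 for Krt18. Smaller ones were 2.1 for Sfrp1, 2.03 for Lgr6, 1.66 for Txnip, 1.38 for Angptl7 and 1.1 for Il1rn. Pgr and Lgr6 were low in every library outside WT, which largely set the sign of their interactions. Negative interactions were -5.54 for Kpna2, -3.16 for P2rx3, -2.99 for Lgr5, -2.97 for Cyp4b1, -2.72 for Reg1, -2.66 for Syt13, -1.95 for Cdsn and -0.52 for Cpped1. The Kpna2 value is uncertain, since 44.8% of its 50-base stretches are shared. Summed with its copy Gm10184, the interaction was -0.22. The Y-linked Eif2s3y, Ddx3y and Uty had -3.02, -2.86 and -2.68.

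Angptl7 and Cpped1 passed the test of the difference without a call for Mlx loss in either background. Angptl7, a secreted angiopoietin-like protein, read 6.04, 5.16 and 2.45 CPM in WT, 1.6, 1.97 and 3.08 in MlxKO, 1.77, 1.24 and 1.64 in MycKO and 3.01, 2.59 and 3.28 in DKO libraries (limma adjusted p = 0.00754).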

How the results depend on the processing

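No paired analysis was possible because the columns carry library numbers that the labels do not tie to replicate numbers. The count of 1774 was 1775 by edgeR, 1976 by DESeq2 and 1376 to 2179 when single libraries were left out, and 510 with an absolute interaction of at least 1. Its positive share was 52.9% to 58.5% over the analysis settings. Leaving out single libraries gave 620 to 2025 genes for Mlx loss with Myc, 113 to 313 with opposite directions, 164 to 435 called only with Myc and 27 to 91 in the same direction. Without the filter, opposite directions numbered 143, the same direction 34 and macrophage calls 5, and the medians were -0.11 for MondoA targets (reversed), 1.15 for complement and -0.0031 for skeletal muscle (reversed). With a mean of at least 5 CPM the MondoA median was 0.72 and the complement median 1.02. The complement median was 1.91 by DESeq2, 1.91 by edgeR, 1.93 with a pseudocount of 0.1 and 1.33 to 1.85 without single libraries. The macrophage median was 1.73 by DESeq2, 1.71 by edgeR and 0.95 to 1.61 without single libraries, and macrophage calls were 6 without the mean trend, 5 with a robust prior, 8 on the square root scale and 6 to 15 without single libraries. The cause of these shifts was not tested. In immortalized cells the count was 4938 to 7291 over its alternatives, chosen after seeing the data. Of the alternatives for single genes and secondary lists, 3567 kept direction and call, 114 lost the call, 3 gained it, 30 moved and 1 reversed. Depth limits genes near the floor of 0.149 to 0.196 CPM.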

Other observations

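Genes known as targets of the hypoxia-inducible factors, a list written after values were seen and in part shared with glycolysis, carried mostly positive interactions. Of 19 tested, 14 were positive and 1 negative, against 7.47% and 6.07% of all genes, with Pdk1, Pfkl and Slc16a3 counted among the glycolysis genes too. Since the members were chosen with values known, these counts are a description and not a test. The list had a median of 0.71 and median Mlx effects of -0.28 with Myc and 0.44 without. Ndufa4l2, a mitochondrial protein induced by low oxygen, averaged 2.92 CPM in WT, 1.74 in MlxKO, 4.16 in MycKO and 17.4 in DKO libraries (interaction 2.37, limma adjusted p = 7.24e-06). Bnip3, which marks mitochondria for removal, averaged 47.3 CPM in WT, 36 in MlxKO, 29.8 in MycKO and 87.2 in DKO libraries (interaction 1.90, limma adjusted p = 5.31e-09). The carbonic anhydrase Car9, the oxygen-sensing hydroxylase Egln3 and the growth factor Vegfa had interactions of 1.57, 1.53 and 0.61, and the negative member was Pfkfb4 at -0.82. Hif1a itself had 0.31 and did not pass (limma adjusted p = 0.113), except without MycKO library 10, where it was 0.43.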
